A study of Mus musculus with 8 samples.

Results

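The 9 genes described here are the 6 mouse Iroquois genes (*Irx1* to *Irx6*), the COUP-TF genes *Nr2f1* and *Nr2f2*, and *Hey1*, transcription factors that mark or divide the chambers of the developing heart. They were taken from the deposited table by exact gene symbol. All 9 were found, in 12 of its 51414 transcript rows (26590 gene symbols). *Irx3*, *Irx6* and *Nr2f2* have another transcript row each, and the row with the highest average of both genotype means stands for its gene. Fetal hearts from C57BL/6J mice were used for sequencing of ribosome-depleted total RNA, 4 from *Dio3*+/+ and 4 from *Dio3*-/- fetuses, each heart from an individual animal. *Dio3* encodes the type 3 deiodinase, which inactivates thyroid hormone, and the knockout is present in every tissue of the fetus, so that the heart and the rest of the body lack the enzyme together. The line was backcrossed to C57BL/6J from another inbred strain, and the Methods do not name the parents of the sequenced fetuses. The titles of all 8 samples carry the embryonic age E13.5. A separate age entry reads E18.5 for *Dio3*-/- hearts 3 and 4, and the Methods name a different age than the Results do. The series is described as male.

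The authors deposited 1 mean per genotype and its coefficient of variation (CV, the SD divided by the mean) over the 4 hearts. The table does not name the unit of the means. They were read as RPKM, a read density normalized to transcript length and library size, because the Methods set their expression threshold in that unit. Values of single hearts and read totals are not part of the table, so the depth of each heart is unknown here (the Methods give a range over all samples) and no heart, including the knockout hearts 3 and 4, can be set apart. Differences were tested on the log2(RPKM + 0.5) scale from the means and CVs with limma, over the 32703 rows whose mean exceeded 1 RPKM in either genotype. These rows carry 14657 gene symbols and include all 12 rows of the 9 genes. On this scale the change of a low gene is understated.

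Iroquois proteins are homeodomain transcription factors encoded in clusters. In the RefSeq annotation (GRCm38.p6) *Irx1*, *Irx2* and *Irx4* follow each other as coding genes on chromosome 13, and *Irx3*, *Irx5* and *Irx6* on chromosome 8. In the heart, *Irx4* marks ventricular muscle, and *Irx3* and *Irx5* act in ventricular conduction and repolarization. COUP-TFs are orphan nuclear receptors. COUP-TFII, the product of *Nr2f2*, is required for atrial muscle identity and is also made in venous endothelium and mesenchyme. *Hey1* encodes a basic helix-loop-helix repressor that is a target of Notch signaling. It is transcribed in the atria, opposite its ventricular relative *Hey2*, and with it confines the atrioventricular canal.

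None of the 9 genes differed detectably between *Dio3*+/+ and *Dio3*-/- hearts. Of the 9 means, 5 were higher and 4 were lower in knockouts, and adjusted *P* values by limma ran from 0.325 to 0.950. Among all tested genes 2.29% were called at an adjusted *P* value under 0.05 (1.91% higher and 0.382% lower in knockouts), so a count of 0 among 9 is near the background and shows nothing particular to these genes. At an unadjusted *P* value under 0.05 limma called 0 of the 9, where 19.7% of tested genes passed, and Welch's test calculated from the same summaries also called 0 of 9 after adjustment, against 0.184% of tested genes. None of the 12 transcript rows was called either, against 2.15% of all tested rows. The intervals of the differences are more informative than the calls. Apart from *Irx6*, the 95% intervals of the other 8 genes lay between a 0.81-fold and a 1.28-fold level in knockouts. For each of the 9 genes, the means of the genotypes were less than the sum of both SDs apart. Among tested genes 15.5% had means farther apart than that, and with only 9 genes a count of 0 again shows nothing particular to them. The median absolute log2 fold change was 0.09 for the 9 genes and 0.09 for the 9881 tested genes whose levels lay between those of *Irx6* and *Irx4*.

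**Figure D1:**
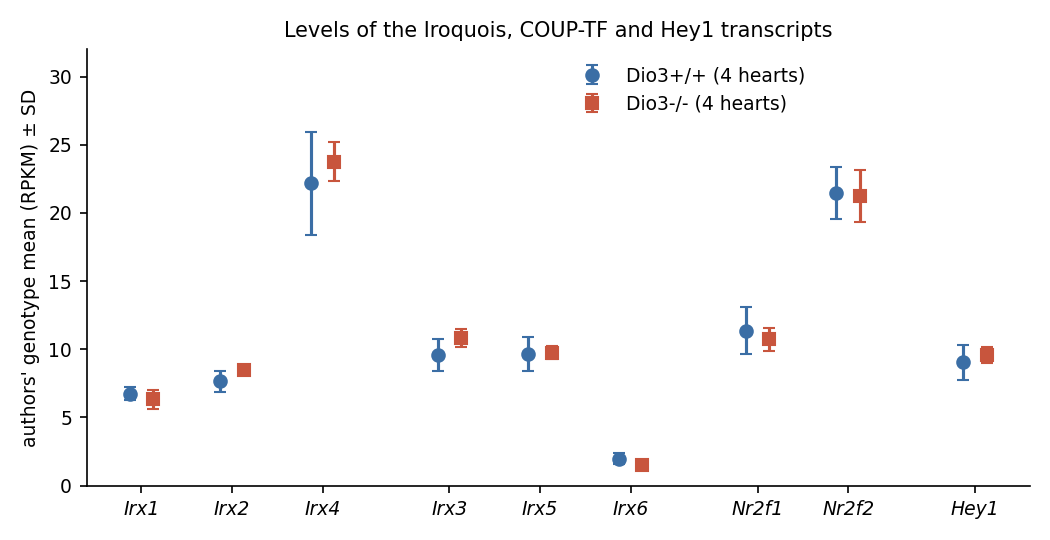
Authors' mean level (RPKM, vertical axis) of each gene in 4 *Dio3*+/+ hearts (blue circles) and 4 *Dio3*-/- hearts (red squares), with bars of 1 SD derived from the CV. *Irx4* and *Nr2f2* stand above 20 RPKM in both genotypes, *Irx6* is below 2 RPKM, and the bars of the genotypes overlap for every gene.

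Of the chromosome 13 cluster, *Irx4*, the ventricular member, was the most abundant of all 9 genes, with a mean of 22.17 RPKM (CV 0.17) in *Dio3*+/+ and 23.76 RPKM (CV 0.06) in *Dio3*-/- hearts. The difference of 1.59 RPKM (7.17%) was smaller than the SD of the *Dio3*+/+ hearts alone (3.77 RPKM). Its log2 fold change was 0.10 (standard error 0.11, 95% interval −0.14 to 0.34, adjusted *P* = 0.681 by limma). *Irx2* had means of 7.66 RPKM (CV 0.10) and 8.51 RPKM (CV 0.04). Its log2 fold change of 0.14 had an interval that just included 0 (−0.02 to 0.30), and its adjusted *P* value by limma was 0.329. *Irx1* went numerically the other way, from 6.75 RPKM (CV 0.07) to 6.33 RPKM (CV 0.11), with a log2 fold change of −0.09 (95% interval −0.27 to 0.10, adjusted *P* = 0.630 by limma). The neighbors of this cluster therefore did not share a sign. No difference among them was tested, because values of single hearts, needed to pair the genes, were not available.

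Of the chromosome 8 cluster, *Irx3*, which in the ventricular conduction system activates the gap junction gene *Gja5*, had means of 9.58 RPKM (CV 0.12) in *Dio3*+/+ and 10.82 RPKM (CV 0.06) in *Dio3*-/- hearts. The gene had the lowest unadjusted *P* value of the 9 (limma, 0.0753), with a log2 fold change of 0.17 (95% interval −0.02 to 0.36, adjusted *P* = 0.325). Its other row gave 9.51 and 10.79 RPKM. *Irx5*, known as a repressor of the potassium channel gene *Kcnd2*, was nearly level, at 9.64 RPKM (CV 0.13) and 9.76 RPKM (CV 0.05). Its log2 fold change was 0.02 (95% interval −0.18 to 0.21, adjusted *P* = 0.942 by limma), and with the median difference over the table set to 0 it became −0.02, so it has no direction. *Irx6* was the least abundant of the 9 and had the largest change in size, from 1.97 RPKM (CV 0.20) to 1.55 RPKM (CV 0.17), which is 21.3% lower in knockouts. Its log2 fold change of −0.27 (standard error 0.14) had a 95% interval from −0.58 to 0.04 and an adjusted *P* value of 0.332 by limma. Its level was above that of only 9.54% of tested genes. With a pseudocount of 0.1 in place of 0.5, the lower bound of its interval moved from a 0.67-fold to a 0.62-fold level, so for this gene a decrease beyond 1.5-fold lay within the interval at that setting. Its other row had means of 1.97 and 1.54 RPKM.

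**Figure D2:**
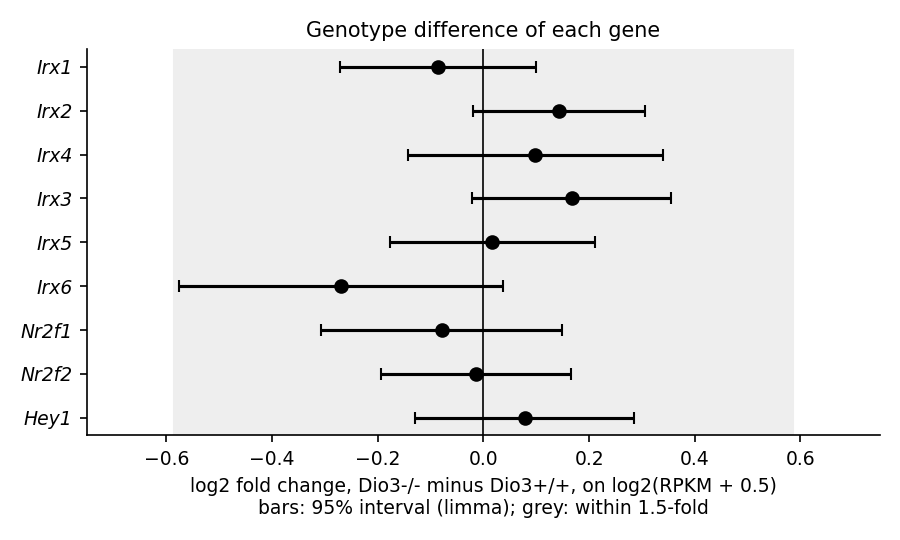
Log2 fold change of each gene (horizontal axis, *Dio3*-/- minus *Dio3*+/+ on the log2(RPKM + 0.5) scale) with its 95% interval from limma. Grey marks a change of less than 1.5-fold in either direction. All 9 intervals include 0, and that of *Irx6*, from −0.58 to 0.04, is the widest.

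The summed Iroquois level, a per-length sum of the 6 main rows, came to 57.77 RPKM for *Dio3*+/+ and to 60.73 RPKM for *Dio3*-/- hearts. *Irx4* made up 38.4% and 39.1% of it, and *Irx6* 3.41% and 2.55%. The chromosome 13 trio summed to 36.58 and 38.60 RPKM and the chromosome 8 trio to 21.19 and 22.13 RPKM. These are sums of the authors' means and carry no error.

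*Nr2f2* was close in level to *Irx4* and the flattest gene of the set. Its main row had means of 21.47 RPKM (CV 0.09) in *Dio3*+/+ and 21.26 RPKM (CV 0.09) in *Dio3*-/- hearts, which is −0.01 ± 0.08 (SE) on the log2 scale (95% interval −0.19 to 0.17, adjusted *P* = 0.950 by limma). The other *Nr2f2* row was at 18.72 RPKM (CV 0.10) and 18.79 RPKM (CV 0.09), with the opposite sign. The gap between the genotype means was 0.05 and 0.02 times the sum of their SDs in these rows, and the interval of the main row leaves room for levels from 0.87-fold to 1.12-fold. *Nr2f1*, the COUP-TFI gene, was less abundant, with 11.36 RPKM (CV 0.15) and 10.73 RPKM (CV 0.08). Its log2 fold change was −0.08 (95% interval −0.31 to 0.15, adjusted *P* = 0.734 by limma). The ratio of *Nr2f2* to *Nr2f1* means was 1.89 in *Dio3*+/+ and 1.98 in *Dio3*-/- hearts, and that of the atrial *Nr2f2* to the ventricular *Irx4* was 0.97 and 0.89. *Hey1* had means of 9.05 RPKM (CV 0.14) and 9.58 RPKM (CV 0.06), which is 0.08 ± 0.09 (SE) on the log2 scale (95% interval −0.13 to 0.29, adjusted *P* = 0.707 by limma). In whole hearts, fewer cells of a type and less RNA per cell cannot be told apart, and the chambers were not measured separately.

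Thyroid hormone receptors and COUP-TFs recognize the same core motif, AGGTCA, and the upstream windows of the abundant pair *Irx4* and *Nr2f2* are shown for that reason. Both are the 250 bases before a RefSeq transcription start (GRCm38.p6), written 5′ to 3′ along the gene, *Irx4* from chr13:73260247-73260496 on the plus strand and *Nr2f2* from chr7:70366747-70366996 on the minus strand. Capitals mark the looser core motif AGGNCA on either strand.
Irx4: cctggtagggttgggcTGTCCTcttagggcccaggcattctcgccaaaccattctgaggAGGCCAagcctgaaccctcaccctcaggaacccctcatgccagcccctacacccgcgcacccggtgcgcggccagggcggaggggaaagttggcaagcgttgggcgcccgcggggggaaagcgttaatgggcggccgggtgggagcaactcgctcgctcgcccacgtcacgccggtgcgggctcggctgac
Nr2f2: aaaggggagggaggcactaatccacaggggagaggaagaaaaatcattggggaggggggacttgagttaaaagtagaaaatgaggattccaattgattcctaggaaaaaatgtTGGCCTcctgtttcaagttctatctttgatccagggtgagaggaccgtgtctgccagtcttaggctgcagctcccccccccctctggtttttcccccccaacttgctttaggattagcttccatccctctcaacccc
The core motif AGGTCA was in none of the 6 windows found for 5 of the genes (*Irx2*, *Irx3*, *Irx4*, *Nr2f1* with 2 starts, and *Nr2f2*) and in 14% of the 32851 windows of the table, on either strand. AGGNCA, which includes AGGTCA, occurred 2 times upstream of *Irx4*, 1 time upstream of *Nr2f2* and 1 time upstream of an *Nr2f1* start, in 3 of the 6 windows and in 51.3% of all. The E-box CACGTG and the Iroquois-type palindrome ACANNTGT were in none of the 6 and in 6.02% and 6.31% of all. The windows differ in composition, with a GC content of 68.8% and 22 CpG dinucleotides for *Irx4* against 50.0% and 1 for *Nr2f2*. The 2 windows of *Nr2f1* also differed, at 39.6% and 2 against 72.0% and 22. Such values therefore belong to a start and not to a gene. These letters describe the windows only.

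The order of levels was much alike in both genotypes. In *Dio3*+/+ hearts it ran from *Irx4* and *Nr2f2* through *Nr2f1*, *Irx5*, *Irx3*, *Hey1*, *Irx2* and *Irx1* to *Irx6*. The steps from *Nr2f2* to *Nr2f1* and from *Irx1* to *Irx6* were the 2 of 8 that exceeded the sum of the SDs of the neighbors. In *Dio3*-/- hearts *Irx3* stood before *Nr2f1*, a step of 0.09 RPKM that is within their spread, and 4 of 8 steps exceeded it. The added ones were from *Hey1* to *Irx2* and from *Irx2* to *Irx1*. The *Hey1* to *Irx2* step itself was smaller in knockouts (1.07 against 1.39 RPKM), while its sum of SDs was 0.92 against 2.03 RPKM. The *Irx2* to *Irx1* step was 2.18 against 0.91 RPKM. A sum of SDs leaves out that both genes were measured in the same hearts. *Irx4* and *Nr2f2* did not differ beyond their spread in either genotype.

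The spread between hearts was smaller in knockouts for 7 of the 9 genes, the same for *Nr2f2* and larger for *Irx1*. The median CV of the 9 was 0.13 in *Dio3*+/+ and 0.06 in *Dio3*-/- hearts. For *Irx4* it went from 0.17 to 0.06, for *Hey1* from 0.14 to 0.06, and for *Irx5* from 0.13 to 0.05. The 9881 tested genes of like level had medians of 0.09 and 0.06, with 65.9% of them less variable in knockouts, so the direction is that of most genes. CVs of 4 hearts are imprecise, the table rounds them to 2 decimals, and no test of the difference was made.

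**Figure D3:**
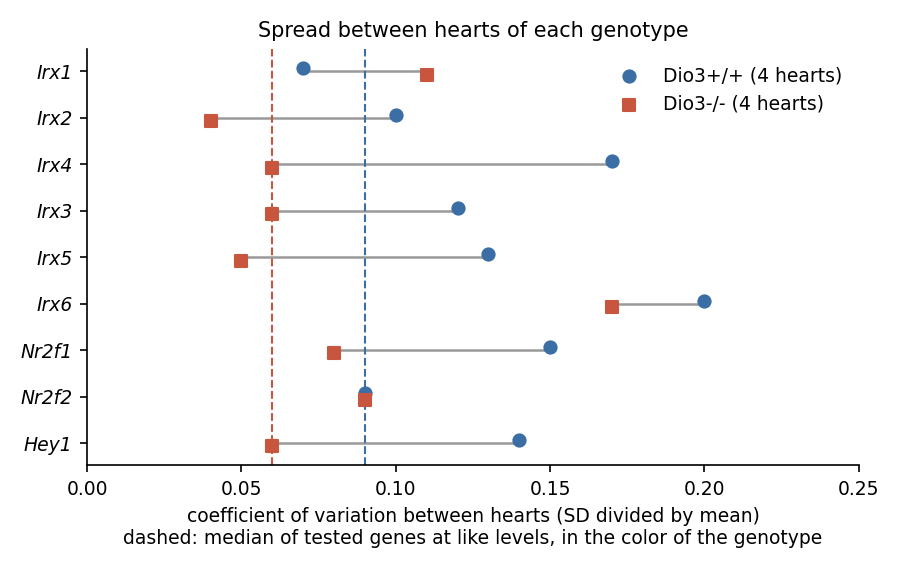
CV between hearts (horizontal axis) of each gene in 4 *Dio3*+/+ hearts (blue circles) and 4 *Dio3*-/- hearts (red squares). Dashed lines are the medians of tested genes at like levels, 0.09 and 0.06. For 7 of 9 genes the red square lies to the left of the blue circle.

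The chamber programs that surround these factors were read from lists of 66 other genes, of which 63 were tested. Of the 63, 4 were higher and 1 was lower in knockouts (adjusted *P* under 0.05 by limma), and 58 were not called. The called share is 7.94% against 2.29% of all tested genes. The lists were chosen with earlier results of these hearts known, and Welch's test called 0 of them. The median log2 fold change was 0.07 over the 63 and 0.04 over all tested genes.

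Among 12 atrial genes 2 rose, 10 were not called, 8 had an unadjusted *P* value under 0.05, and the median log2 fold change was 0.21. *Stard10*, which encodes a lipid transfer protein, rose from 16.78 RPKM (CV 0.09) to 24.96 RPKM (CV 0.07), or by 0.56 ± 0.07 (SE) on the log2 scale (adjusted *P* = 0.0070, limma). *Myh6*, the α myosin heavy chain gene and a classical thyroid hormone target, rose by 1.06 on the log2 scale (adjusted *P* = 0.0013 by limma). The atrial light chain gene *Myl7* had means of 846.82 and 1066.12 RPKM (adjusted *P* = 0.139 by limma). *Angpt1*, which encodes an angiopoietin and has been linked to COUP-TFII, had means of 23.62 RPKM (CV 0.04) and 21.74 RPKM (CV 0.04), with an adjusted *P* value of 0.232 by limma.

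Of 8 ventricular genes limma called *Cited1* lower and none higher, 5 had a higher mean in knockouts, and the median log2 fold change was 0.08. The 2 with an unadjusted *P* value under 0.05 by limma were *Cited1* and *Myl3*. The *Myl3* mean was higher in knockouts, 910.03 against 704.26 RPKM, with an adjusted *P* value of 0.140 by limma. *Cited1*, a transcriptional coregulator gene of the left ventricle and its trabeculae, had means of 145.18 RPKM (CV 0.11) in *Dio3*+/+ and 96.85 RPKM (CV 0.10) in *Dio3*-/- hearts, a difference of −0.58 ± 0.09 (SE) on the log2 scale (adjusted *P* = 0.016, limma). *Myl2*, the ventricular light chain gene, had means of 3431.57 and 4058.35 RPKM (adjusted *P* = 0.353 by limma). *Hand1*, a left ventricular factor, had 11.51 and 12.14 RPKM (adjusted *P* = 0.760 by limma).

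Among the conduction genes and the known partners or targets of Iroquois factors, 13 of 14 were tested, 2 rose, none fell and 6 had an unadjusted *P* value under 0.05, with a median log2 fold change of 0.16. Neither of these is described individually. *Kcnd2*, the gene that *Irx5* represses in ventricular muscle, had 2.04 RPKM (CV 0.05) and 2.64 RPKM (CV 0.03), with an adjusted *P* value of 0.056 by limma that missed the threshold. Over the alternatives in which the gene was tested this value ran from 0.024, without the mean-variance trend, to 0.101, with centring, and it passed the threshold in the first of these only. *Smyd1*, whose product is a cofactor of *Irx5*, had means of 105.85 and 122.37 RPKM (adjusted *P* = 0.123 by limma). The connexin genes *Gja5* and *Gja1*, which *Irx3* activates and represses in the conduction system, had means of 61.25 and 67.20 RPKM and of 125.81 and 147.29 RPKM, with adjusted *P* values of 0.357 and 0.144 by limma. *Tbx5* and *Nkx2-5*, partners of *Irx3* there, were not called.

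The other lists held no call. Of the 7 Hairy and Notch genes around *Hey1*, limma called 0 and 2 had an unadjusted *P* value under 0.05. *Hey2* had means of 44.75 RPKM (CV 0.14) and 50.07 RPKM (CV 0.03), which made it 4.94 and 5.23 times as abundant as *Hey1*. *Heyl*, the third member of the family, had 4.45 and 5.58 RPKM, with an adjusted *P* value of 0.069 by limma. None of the 5 atrioventricular canal genes, whose boundary *Hey1* and *Hey2* set, was called or had an unadjusted *P* value under 0.05. Of these 5 means 2 were higher in knockouts, those of *Bmp4* (12.47 and 13.86 RPKM) and *Msx2* (2.13 and 2.64 RPKM). *Bmp2* had means of 7.93 and 6.78 RPKM. *Tbx3*, a repressor of chamber genes, had means of 10.61 RPKM with a CV of 0.77 in *Dio3*+/+ and 7.53 RPKM with a CV of 0.15 in *Dio3*-/- hearts. Of 7 tested COUP-TF coregulators and upstream genes limma called 0, with 1 unadjusted *P* value under 0.05, that of *Zfpm2* (11.87 and 13.81 RPKM), which encodes the cofactor FOG2. Of 9 tested nuclear receptors that bind related core motifs limma called 0, with 0 unadjusted *P* values under 0.05. The highest of them was *Thra*, at 46.32 and 46.45 RPKM. The 3 neighbors of the chromosome 8 cluster (*Fto*, *Rpgrip1l* and *Crnde*) also had 0 calls and 0 unadjusted *P* values under 0.05. The long noncoding RNA *Crnde*, next to *Irx5* in RefSeq, had 3.28 and 3.44 RPKM.

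**Figure D4:**
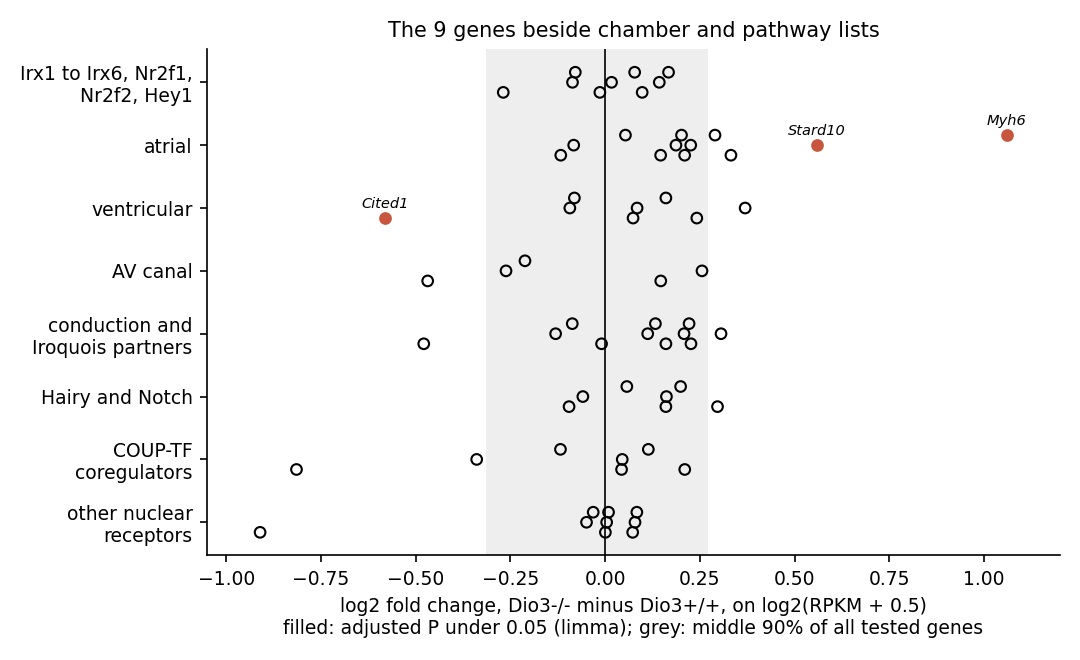
Log2 fold change (horizontal axis, *Dio3*-/- minus *Dio3*+/+ on the log2(RPKM + 0.5) scale) of the 9 genes in the top row and of the tested genes of 7 lists below. Filled red points are called by limma, open points are not, and grey spans the middle 90% of all tested genes (−0.31 to 0.27). All 9 genes of the top row lie inside the grey span, and the named called genes lie outside it. The 2 called genes of the conduction list are not drawn.

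Markers checked the tissue and the cells that could have come with it. All 7 cardiomyocyte markers were at 62.8 RPKM or more in both genotypes. Their sum was 7769 RPKM in wild-type and 9223 RPKM in knockout hearts, 6 of 7 means were higher, 4 had an unadjusted *P* value under 0.05, *Myh6* was called by limma, and the median log2 fold change was 0.23. Levels of the endothelial and epicardial lists, cells in which *Nr2f2* and *Hey1* are also transcribed, were close, with sums of 223.37 and 238.89 RPKM over 6 endothelial genes, 140.22 and 147.90 RPKM over 5 arterial genes, 73.75 and 74.17 RPKM over 5 venous and lymphatic genes, and 106.41 and 114.43 RPKM over 6 epicardial genes, with 0 calls by limma. Among them 2 of the endothelial and 2 of the epicardial genes, and none of the other 10, had an unadjusted *P* value under 0.05. Means were higher in knockouts for 6 of 6 endothelial, 4 of 5 arterial, 4 of 5 venous and lymphatic and 5 of 6 epicardial genes. The median log2 fold changes were 0.10, 0.13, 0.08 and 0.14, against 0.04 over all tested genes. The lower venous and lymphatic mean was that of *Nrp2*, with 8.10 RPKM (CV 0.58) in *Dio3*+/+ and 5.73 RPKM (CV 0.07) in *Dio3*-/- hearts. The 6 mesenchymal genes summed to 640.07 and 561.26 RPKM with 0 calls and 0 unadjusted *P* values under 0.05, and their median CV was 0.44 in *Dio3*+/+ against 0.055 in *Dio3*-/- hearts. All 8 hepatocyte markers had higher means in knockouts, with sums of 15.05 and 103.38 RPKM, median CVs of 1.15 and 1.18, and 0 calls by limma (8 with an unadjusted *P* value under 0.05). The 4 red cell markers found were all lower, from a sum of 29641 to 10124 RPKM, of which *Hbb-bh1* was called (adjusted *P* = 0.047, limma), and *Hbb-y*, the embryonic globin gene, had a CV of 0.61 in knockouts. The call of *Hbb-bh1* was lost without a filter, without the trend, with Welch's test, with centring and with raised CVs. The 9 genes had CVs between 0.07 and 0.20 in *Dio3*+/+ and between 0.04 and 0.17 in *Dio3*-/- hearts. Their median CV was 0.13 in *Dio3*+/+ hearts, against 0.09 for tested genes of like level. The part of these other cells in the values of the 9 genes was not tested.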

How the data were processed

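Total RNA of 8 fetal hearts was sequenced single-end on an Illumina HiSeq. The authors aligned uniquely mapping reads with Novoalign (version 2.08), applied a linear scaling to the smallest library, and deposited genotype means, read here as RPKM, the unit of the filter in the Methods, and a ratio, the coefficient of variation, both rounded to 2 decimals. The table does not name the unit, and its build, annotation and counting of strand are not given in the sources used here. RefSeq lists an overlapping gene for *Irx2*, *Nr2f1*, *Nr2f2* and *Hey1*, whose reads cannot be told apart without strand. The authors' fold changes and *q* values were not used.

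The SD on the log2(RPKM + 0.5) scale was approximated from each mean and coefficient of variation by the delta method, and limma (version 3.58.1, R 4.3.3) with a mean-variance trend moderated the pooled variance (6 residual and 3.52 prior degrees of freedom). Adjustment was by Benjamini-Hochberg over 32703 rows. The procedure was tested on simulated data. Python (3.11.15), pandas (2.3.3) and matplotlib (3.10.9) were used for sequences and plots. Motifs were searched in the 250 bases upstream of RefSeq starts. *Crnde* and *Foxf1* were found under RefSeq synonyms, and *Hba-a1* was not matched. The genes named are the 9 members, each called list gene and the most abundant list genes, except that the 2 called conduction genes are counted but not reported here by name. Other uncalled list genes (such as *Angpt1*, *Kcnd2*, *Smyd1*, *Tbx3*, *Heyl* and *Zfpm2*) were named for their known role, after their values were seen, as was the motif AGGNCA. *Myl3* was named for its unadjusted *P* value. The members and lists were chosen with earlier results of these data known. Alternatives were 2 other pseudocounts, 2 other filters, no trend, 1 row per gene, Welch's test, centring and raised coefficients of variation.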

Additional observations from a re-analysis of the deposited data

How the results depend on the processing

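No member was called under any of the 9 alternatives, or when any transcript row could count, and the lowest adjusted *P* value of a member was 0.290 (limma). The log2 fold change kept its sign under each alternative except for *Irx5* (−0.021 with both genotypes centred, a shift of 0.04) and *Nr2f2* (0.0052 in its other row, an alternative chosen after seeing the data). That of *Irx6* went from −0.33 to −0.22, and it could not be tested with a mean above 5 RPKM required. With centring, 1 member (*Irx6*) had an unadjusted *P* value under 0.05. By their main row 336 of all tested genes were called, 197 without a filter, 27 with Welch's test, 180 with centring and 187 with the coefficient of variation raised by 0.005. Welch's test called 0 atrial, 0 ventricular, 0 conduction, 0 cardiomyocyte, 0 neural and 0 red cell genes. With a mean above 5 RPKM over both genotypes, conduction had 1 call and the neural list 0. Without the trend conduction had 3 calls, with *Kcnd2* among them. The call of *Hbb-bh1* was lost (0 red cell calls) without a filter, without the trend, with centring, with Welch's test and with raised coefficients of variation. The cause was not tested. No paired analysis was possible because the table holds no values for single hearts, so no heart could be left out either. The depth of each heart is not in the table.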

Other observations

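Marker lists for tissues beside the heart held single genes at a level of their own. Among 7 lung and foregut genes, *Nkx2-1*, a lung and thyroid transcription factor gene, had means of 8.18 RPKM (CV 0.16) in *Dio3*+/+ and 8.35 RPKM (CV 0.20) in *Dio3*-/- hearts, while *Sftpc*, the lung surfactant gene, was listed at 0 in *Dio3*+/+ hearts and at 0.26 RPKM (CV 1.47) in knockouts. Limma called 0 of the 2 tested genes of that list, *Nkx2-1* and *Foxf1*, and *Foxf1* had an unadjusted *P* value under 0.05. Of 5 neural crest and neuron genes 2 were tested, and *Tubb3*, a neuronal tubulin gene, rose by 70.2% to 3.54 RPKM (CV 0.10), or by 0.65 ± 0.09 (SE) on the log2 scale (adjusted *P* = 0.0086, limma). *Th*, which encodes tyrosine hydroxylase of autonomic neurons, had means of 0.12 RPKM (CV 0.36) in *Dio3*+/+ and 0.13 RPKM (CV 0.51) in *Dio3*-/- hearts.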
